A study of Homo sapiens with 6 samples.

Results

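The transcripts described here encode 10 core subunits of the Polycomb repressive complexes: EZH2, EZH1, EED, SUZ12 and JARID2 of PRC2, and RNF2, RING1, BMI1, CBX2 and CBX7 of PRC1. They were taken by gene name from a table of 12227 listed genes, and all 10 were present. RNA sequencing was done on PC3, an established human prostate cancer cell line, after expression of a short hairpin RNA (shRNA) against VprBP (3 libraries, genotype given as VprBP knockdown) or of a control shRNA (3 libraries, genotype given as WT). The labels name no drug treatment of these cells. The labels do not say whether a library number stands for a hairpin, a clone, a culture or a repeat library, so p-values measure only the spread between these libraries, which may be technical. The comparison asks which of these transcripts differ in level when VprBP, encoded by DCAF1, is depleted.

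Polycomb complexes keep developmental genes silent. PRC2 methylates histone H3 at the residue known as H3K27. EZH2 or EZH1 is its catalytic subunit, EED and SUZ12 are needed for activity, and JARID2 helps to recruit and stimulate the enzyme. PRC1 adds ubiquitin to histone H2A through RNF2 or RING1 together with a PCGF protein such as BMI1, and in canonical PRC1 a CBX protein reads the methyl mark made by PRC2. EZH2 and BMI1 are often abundant in prostate and other tumours. EZH2 has been reported as a protein phosphorylated by VprBP, a process that transcript levels do not measure.

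The libraries had a depth, summed over listed genes in units of 1e+06 estimated reads, of 23.0 to 39.6 in VprBP-depleted cells and of 23.0 to 32.3 in control cells. The median absolute difference over genes was 4.42% to 6.60% between libraries of one group and 15.7% to 17.9% between groups. VprBP-depleted replicate 3 was the library farthest from the others of its group. DCAF1 had values of 38.5, 41.1 and 40.2 in VprBP-depleted cells, against 79.4, 78.5 and 78.7 in control cells, so 50.6% of the control level remained. The difference was -0.97 on the log2 scale (SE 0.05, limma adjusted p = 3.56e-11), and an exact two-sided permutation test gave p = 0.1, the smallest that 3 libraries against 3 allow. Of the epithelial markers, KRT8, KRT18, EPCAM and CDH1 were abundant, with mean values from 279 to 693 in VprBP-depleted cells and from 251 to 455 in control cells. The luminal prostate marker KLK3 was not among the listed genes, nor were any of 5 leukocyte markers. The endothelial marker PECAM1 averaged 23.3 in VprBP-depleted cells and 54.2 in control cells and the fibroblast marker COL1A1 averaged 24.7 in VprBP-depleted cells and 24.4 in control cells, each as the only listed gene of its marker list (of 3 and of 5 genes). The basal marker TP63 averaged 3.74 in VprBP-depleted cells and 13.7 in control cells, and the part of these differences in the results was not tested.

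Polycomb subunit transcripts moved in both directions. BMI1, EZH2, EED and RING1 were higher in VprBP-depleted cells, by 1.45-fold, 1.24-fold, 1.18-fold and 1.13-fold. CBX7, EZH1 and CBX2 were lower, by 1.83-fold, 1.41-fold and 1.32-fold. SUZ12, JARID2 and RNF2 did not pass the test. Folds are ratios of the group means of the deposited values, and a gene was called at a limma adjusted p under 0.05 over all 12227 genes. By this rule 7 of 10 members were called, 4 higher and 3 lower, against 60.9% of all listed genes (33.0% higher and 27.8% lower), so the share of called members was near the background. Without VprBP-depleted replicate 2 the number of members called higher was 2, and the number called lower was still 3. The groups did not overlap for 8 of 10 members, against 64.8% of all genes. The median absolute log2 fold change was 0.28 over the members and 0.21 over all listed genes. Against a fold of 1.5 (limma treat), 1 member, CBX7, was called, where 5.32% of all genes were. PC3 cultures are bulk samples, in which fewer cells expressing a transcript and less transcript per cell cannot be told apart.

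**Figure D1:**
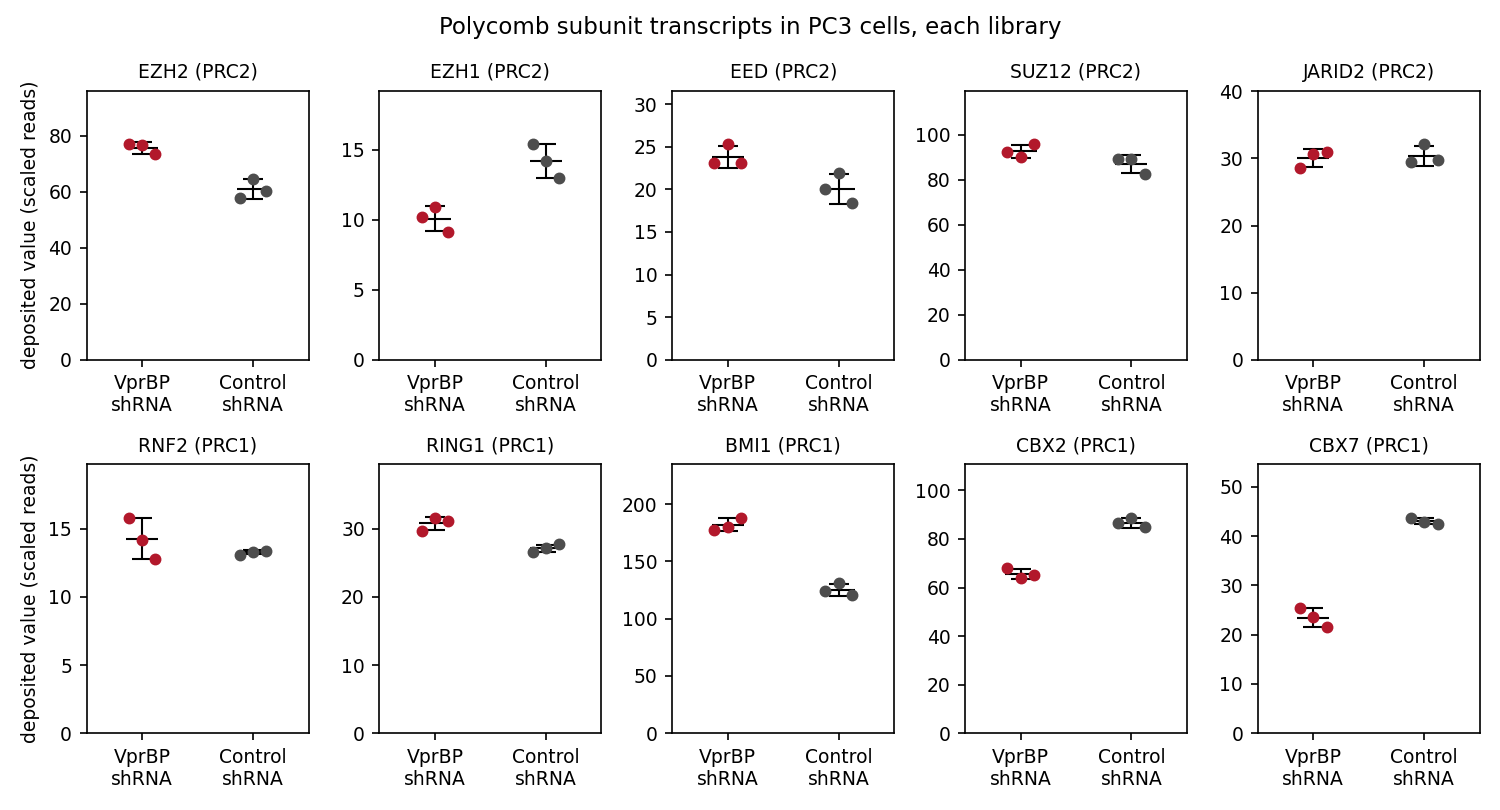
Deposited values (scaled reads, vertical axes from 0) of the 10 Polycomb subunit transcripts in each library, with VprBP shRNA left of control shRNA; points are libraries and bars are the mean ± SD of 3. The groups are apart in every panel except JARID2 and RNF2, and in the SUZ12 panel they are close (90.0 is the lowest VprBP-depleted library and 89.3 the highest control library).

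**Figure D2:**
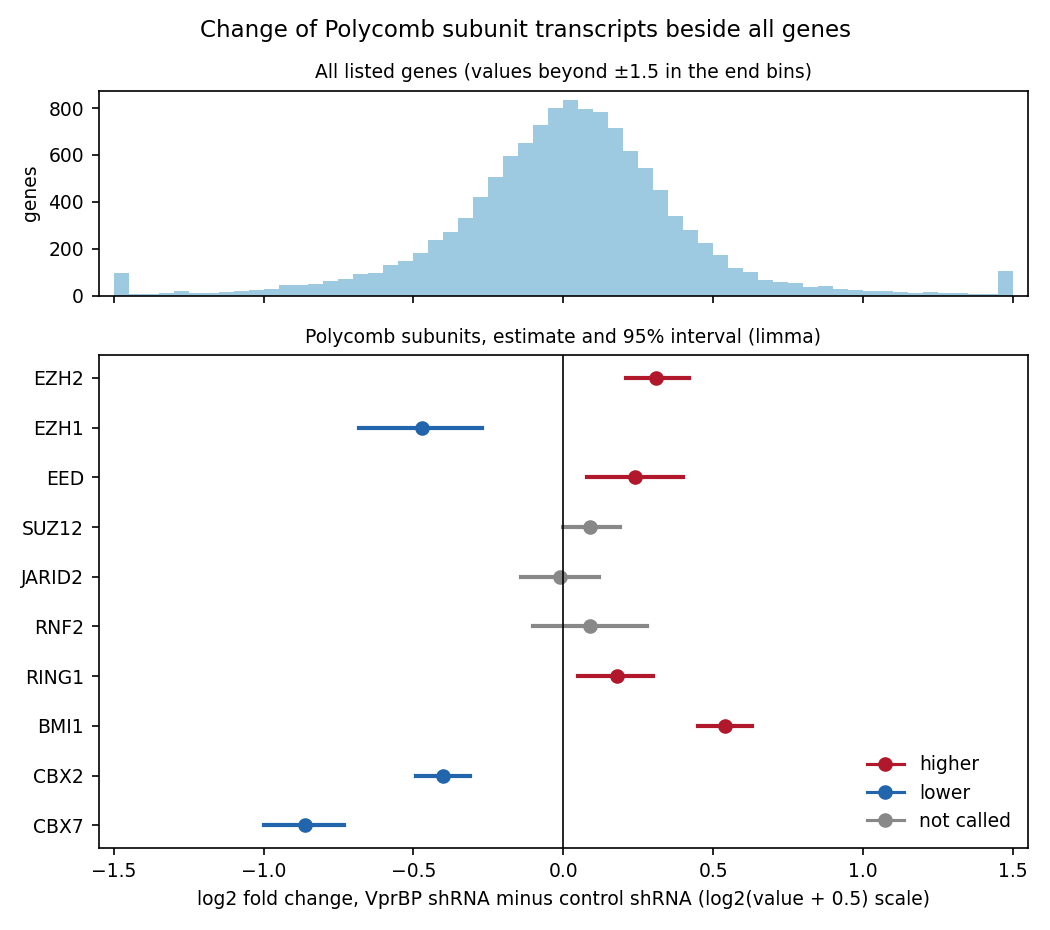
Upper panel, the number of listed genes by log2 fold change, VprBP shRNA minus control shRNA, on the log2(value + 0.5) scale; lower panel, the estimate for each Polycomb subunit with its 95% interval from limma. CBX7 lies farthest from 0 at -0.86, BMI1 is the highest at 0.54, and the intervals of SUZ12, JARID2 and RNF2 include 0.

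The catalytic subunits of PRC2 moved in opposite directions. EZH2, the form that dominates in dividing cells, had values of 76.9, 76.8 and 73.3 in VprBP-depleted cells, against 57.7, 64.6 and 60.4 in control cells. Every VprBP-depleted library was above every control library. On the log2 scale EZH2 was higher by 0.31 (SE 0.05, limma adjusted p = 4.82e-05), a change larger in size than that of 67.0% of listed genes. EZH1, the form found mostly in resting and differentiated cells, had values of 10.2, 10.9 and 9.14 in VprBP-depleted cells, against 15.4, 14.2 and 13.0 in control cells. Here every VprBP-depleted library was below every control library. The difference in EZH1 was -0.47 on the log2 scale (SE 0.10, limma adjusted p = 4.81e-04). EZH1 was the least deeply covered member, with 208 to 500 estimated reads per library, a counting error of up to 6.93%. EZH2 (ENSG00000106462.12) spans hg38 positions 148807257 to 148884321 of chromosome 7 and EZH1 (ENSG00000108799.13) positions 42700275 to 42745049 of chromosome 17, both on the minus strand. No other listed gene overlapped any of the 10 members.

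Because the paralogues parted, the 250 bases before the RefSeq start of each are shown, on the strand of the gene, for EZH2 at chr7:148884292-148884541 and for EZH1 at chr17:42745041-42745290 (GRCh38.p14, both minus strand). Capitals mark CCAAT or its reverse complement ATTGG, the letters of the CCAAT box that the factor NF-Y binds in many cell-cycle promoters.
EZH2: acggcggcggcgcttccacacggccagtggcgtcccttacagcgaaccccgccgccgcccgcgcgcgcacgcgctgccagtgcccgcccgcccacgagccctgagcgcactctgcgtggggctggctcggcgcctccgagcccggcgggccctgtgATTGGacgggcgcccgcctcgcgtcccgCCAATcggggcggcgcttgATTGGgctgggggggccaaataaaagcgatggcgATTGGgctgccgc
EZH1: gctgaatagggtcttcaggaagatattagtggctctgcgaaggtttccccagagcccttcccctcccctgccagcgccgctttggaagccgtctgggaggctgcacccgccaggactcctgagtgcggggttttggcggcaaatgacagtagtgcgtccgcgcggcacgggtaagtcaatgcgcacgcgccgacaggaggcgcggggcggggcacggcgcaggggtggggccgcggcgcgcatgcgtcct
The EZH2 window held 4 such matches, at 94, 66, 47 and 13 bases before the start, and the EZH1 window held none. At least 1 match was present in 32.0% of 35116 RefSeq promoter windows of this length, and 4 or more in 0.874%. Both windows were rich in G and C, 75.6% for EZH2 and 67.6% for EZH1, against a median of 58.0% over all windows. RefSeq gives EZH2 a further start, whose window held no match and is not shown.

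Of the noncatalytic PRC2 subunits, EED was higher and SUZ12 and JARID2 were not called. EED, which binds the H3K27 methyl mark and so stimulates the enzyme, had values of 23.1, 25.3 and 23.1 in VprBP-depleted cells, against 20, 21.9 and 18.4 in control cells. The lowest VprBP-depleted value was above the highest control value by a small margin. EED was higher by 0.24 on the log2 scale (SE 0.08, limma adjusted p = 0.0119). This call was lost without VprBP-depleted replicate 2 (limma adjusted p = 0.0592) and without control replicate 3 (limma adjusted p = 0.0690). EED (ENSG00000074266.23) spans 86201212 to 86278813 on the plus strand of chromosome 11.

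SUZ12, which holds the PRC2 core together, had values of 92.1, 90.0 and 95.7 in VprBP-depleted cells, against 89.3, 89.0 and 82.3 in control cells. The groups did not overlap, but only narrowly, and the difference was not called (log2 fold change 0.09, SE 0.05, limma adjusted p = 0.0895). On the log2(value + 0.5) scale the 95% interval of the difference ran from a ratio of 0.997 to 1.14. SUZ12 has a partial pseudogene copy on the same chromosome, and reads shared with it cannot be told apart here. JARID2 had values of 28.6, 30.6 and 31.0 in VprBP-depleted cells, against 29.4, 32.1 and 29.7 in control cells. These ranges overlapped, and JARID2 had the smallest change of the 10 members (log2 fold change -0.01, SE 0.06, limma adjusted p = 0.868). The interval for JARID2, 0.905 to 1.09 as a ratio, leaves room for a difference of this size in either direction. SUZ12 (ENSG00000178691.11) spans 31937007 to 32001038 on the plus strand of chromosome 17, and JARID2 (ENSG00000008083.14) spans 15246069 to 15522042 on the plus strand of chromosome 6.

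Of the alternative ubiquitin ligase subunits of PRC1, RING1 was higher and RNF2 was not called. RING1 had values of 29.7, 31.6 and 31.1 in VprBP-depleted cells, against 26.6, 27.1 and 27.7 in control cells. The groups did not overlap (log2 fold change 0.18, SE 0.06, limma adjusted p = 0.0170). The RING1 call was lost without VprBP-depleted replicate 2 (limma adjusted p = 0.0631) and without control replicate 1 (limma adjusted p = 0.0590). RNF2, also called RING1B, had values of 15.8, 14.2 and 12.8 in VprBP-depleted cells, against 13.1, 13.3 and 13.4 in control cells. The VprBP-depleted libraries lay on both sides of the control libraries and varied more among themselves, with a coefficient of variation of 10.6% in VprBP-depleted cells and 1.32% in control cells. The log2 fold change of RNF2 was 0.09 (SE 0.09, limma adjusted p = 0.380), with a 95% interval of 0.936 to 1.22 as a ratio. RNF2 was covered by 291 to 621 estimated reads per library. RING1 (ENSG00000204227.5) spans 33208500 to 33212722 on the plus strand of chromosome 6, and RNF2 (ENSG00000121481.12) spans 185045497 to 185102603 on the plus strand of chromosome 1.

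BMI1, the PCGF partner of the ligase that was first found as a collaborator of Myc in mouse lymphoma, had the largest increase among the members. Its values were 177, 180.4 and 188 in VprBP-depleted cells, against 124, 131 and 120.3 in control cells. The groups were well apart, with a difference of 0.54 on the log2 scale (SE 0.04, limma adjusted p = 1.01e-08), larger in size than that of 86.5% of listed genes. BMI1 (ENSG00000168283.14) spans 22321099 to 22331484 on the plus strand of chromosome 10, just downstream of COMMD3 on the same strand. A readthrough gene in GENCODE 29, COMMD3-BMI1, covers both loci and is not analysed here, so part of the BMI1 reads could belong to it. COMMD3, named because of this position, had values of 56.3, 51.8 and 53.9 in VprBP-depleted cells, against 28.1, 27.3 and 27.8 in control cells. COMMD3 was thus 1.95-fold higher (log2 fold change 0.95, SE 0.05, limma adjusted p = 3.12e-10), and its part in the BMI1 result was not tested.

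The 250 bases before the first of the RefSeq starts of BMI1, chr10:22320849-22321098 on the plus strand, are given because this member rose most. Capitals mark the palindromic E-box CACGTG, the letters bound by MYC and related factors.
BMI1: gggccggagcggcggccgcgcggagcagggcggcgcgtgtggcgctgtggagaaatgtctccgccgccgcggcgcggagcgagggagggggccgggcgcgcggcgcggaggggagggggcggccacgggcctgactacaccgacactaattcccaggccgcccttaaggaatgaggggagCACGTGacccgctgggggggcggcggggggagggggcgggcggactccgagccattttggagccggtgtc
The E-box began 70 bases before this start. The window of a further BMI1 start, not shown, held no E-box and had 91.6% G and C. The same letters were found in 6.34% of the 35116 windows and in no window of another member. Of the 10 members, 9 were matched to RefSeq windows, and CBX2 was not. The E2F-type letters TTTCCCGC, on either strand, were found in the window of SUZ12 alone among the members and in 1.39% of all windows, and a second E2F-type run, TTTGGCGC, was in no member's window and in 0.550% of all. The ETS-type letters CCGGAAGT were likewise in no member's window and in 3.42% of all.

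The CBX members, which anchor canonical PRC1 to the H3K27 methyl mark, were both lower. CBX7, which is known to repress the CDKN2A locus in cultured cells, had values of 25.4, 23.5 and 21.5 in VprBP-depleted cells, against 43.7, 42.8 and 42.5 in control cells. The highest VprBP-depleted library was far below the lowest control library. Its difference of -0.86 on the log2 scale (SE 0.07, limma adjusted p = 9.53e-09) was larger in size than that of 94.7% of listed genes, and 54.6% of the control level remained. CBX2, which compacts nucleosomes, had values of 67.9, 63.8 and 65.2 in VprBP-depleted cells, against 86.5, 88.7 and 84.8 in control cells. The groups again did not overlap (log2 fold change -0.40, SE 0.04, limma adjusted p = 9.05e-07). CBX7 (ENSG00000100307.13) spans 39120167 to 39152680 of chromosome 22 on its minus strand. CBX2 (ENSG00000173894.11) spans 79778148 to 79787983 of chromosome 17 on its plus strand, near CBX8.

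The window before the RefSeq start of CBX7, chr22:39152681-39152930 on the minus strand, is shown as that of the member with the largest decrease.
CBX7: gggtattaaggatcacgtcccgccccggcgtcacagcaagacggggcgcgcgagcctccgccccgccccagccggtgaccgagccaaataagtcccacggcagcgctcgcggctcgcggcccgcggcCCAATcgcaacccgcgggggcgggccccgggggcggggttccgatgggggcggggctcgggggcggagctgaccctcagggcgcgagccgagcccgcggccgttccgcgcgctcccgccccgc
It held 1 CCAAT box, in capitals, 123 bases before the start, and no E-box. With 78.8% G and C it was richer in these bases than 95.4% of all windows. CCAAT boxes were thus present before members that rose (EZH2, EED), a member that fell (CBX7) and members that were not called (SUZ12, JARID2). A match of these letters is a description and not a binding site.

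To compare levels between subunits, values were divided by the length of the principal transcript in GENCODE 29. On this scale of value per kilobase, BMI1 was the most abundant member, at 53.1 ± 1.63 in VprBP-depleted cells and 36.5 ± 1.58 in control cells (SD, n = 3 each). EZH2 had 28.7 ± 0.780 in VprBP-depleted cells and 23.1 ± 1.32 in control cells (SD, n = 3 each). The lowest was EZH1, at 2.18 ± 0.192 in VprBP-depleted cells and 3.07 ± 0.259 in control cells (SD, n = 3 each). In VprBP-depleted cells the order from high to low was BMI1, EZH2, SUZ12, RING1, CBX2, EED, CBX7, JARID2, RNF2 and EZH1, and the ranges of CBX7 and JARID2 overlapped. In control cells it was BMI1, EZH2, SUZ12, CBX2, RING1, CBX7, EED, JARID2, RNF2 and EZH1, and the ranges of SUZ12 and CBX2 overlapped. RING1 and CBX2 thus changed places, as did EED and CBX7. EED had 10.7 ± 0.557 and CBX7 had 5.75 ± 0.483 per kilobase in VprBP-depleted cells, whereas control cells had 9.05 ± 0.800 for EED and 10.5 ± 0.157 for CBX7 (SD, n = 3 each). The control ranges of EED and CBX7 did not overlap. Apart from BMI1 at the top and EZH1 at the bottom, places in this order rest on the length used. Per kilobase of the union of annotated exons, EZH2 had 16.7 in VprBP-depleted cells and 13.5 in control cells, below RING1 at 16.9 in VprBP-depleted cells and 14.9 in control cells, and below CBX2 at 15.2 in control cells. The union is also longer than the principal transcript of EED (7016 against 2223 bases). On it, EED had 3.40 in VprBP-depleted cells and 2.87 in control cells, and CBX7 had 3.14 in VprBP-depleted cells and 5.76 in control cells.

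Ratios within a library do not depend on library scaling, except through the constant of 0.5 that was added here to each value. The log2 ratio of EZH2 over EZH1 was 2.85, 2.76 and 2.94 in VprBP-depleted libraries, against 1.88, 2.14 and 2.18 in control libraries, a difference of 0.79 (exact two-sided permutation p = 0.1). With 0.1 or 1 added instead, this difference was 0.80 or 0.76. The log2 ratio of BMI1 over PCGF2, a close PCGF relative also called MEL18, was 3.31, 3.46 and 3.64 in VprBP-depleted libraries, against 2.50, 2.64 and 2.59 in control libraries, a difference of 0.90 (exact permutation p = 0.1). These groups did not overlap. The log2 ratio of CBX2 over CBX7 was 1.40, 1.42 and 1.58 in VprBP-depleted libraries, against 0.98, 1.04 and 0.99 in control libraries, a difference of 0.46 (exact permutation p = 0.1). In these 3 pairs every VprBP-depleted library was above every control library, and the exact permutation test cannot give a p under 0.1 here. RNF2 over RING1 was -0.89, -1.13 and -1.25 in VprBP-depleted libraries, against -1.0, -1.0 and -1.02 in control libraries (exact permutation p = 0.6). The 4 ratios were the only ones computed, and none could pass 0.05 before or after adjustment.

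Shares within the EZH, PCGF and RING families, computed per kilobase, describe the same values as a make-up of transcripts. EZH2 held 92.9% ± 0.424 of the EZH level in VprBP-depleted cells and 88.2% ± 1.24 in control cells (SD, n = 3 each). Among the 6 PCGF genes BMI1 held 57.5% ± 1.34 in VprBP-depleted cells and 48.5% ± 1.36 in control cells (SD, n = 3 each), and the summed PCGF level per kilobase was 92.4 ± 0.818 in VprBP-depleted cells and 75.3 ± 1.14 in control cells. RING1 held 81.6% ± 1.99 of the RING level in VprBP-depleted cells and 80.8% ± 0.130 in control cells (SD, n = 3 each). These shares were chosen after the values were seen and are given with no test.

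**Figure D3:**
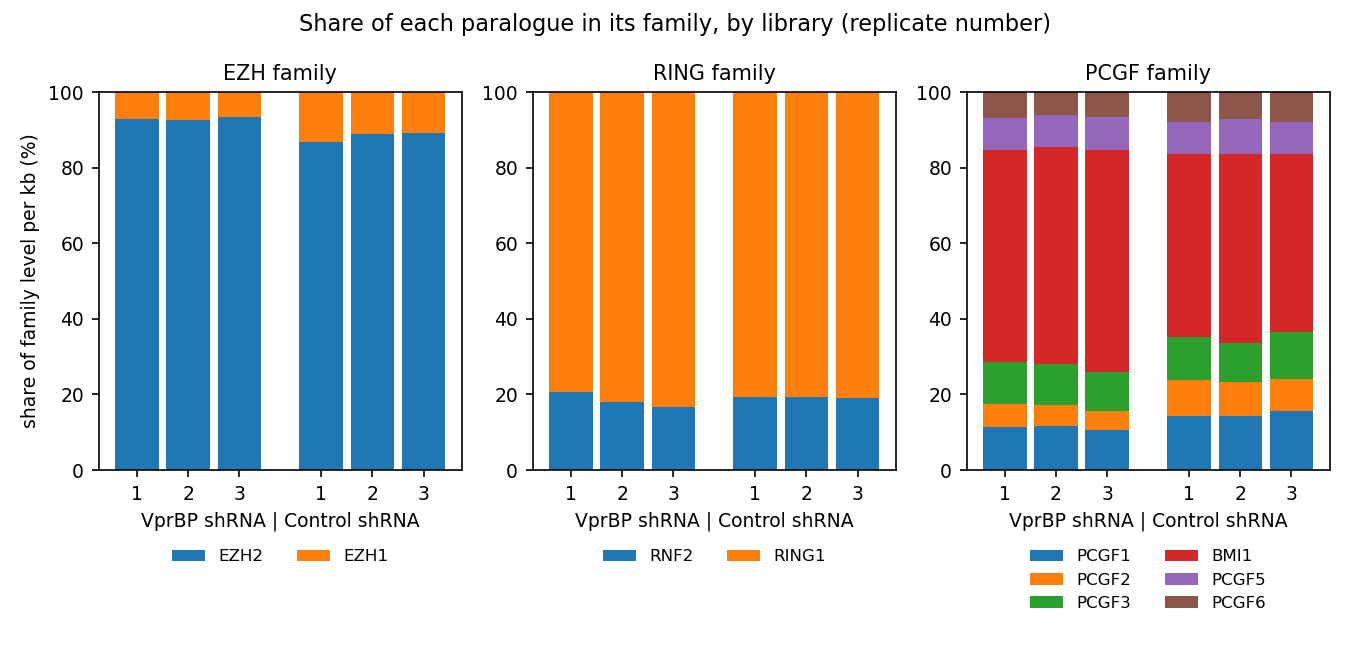
Share (%, vertical axes from 0 to 100) of each paralogue in the summed level per kilobase of its family, in each library by replicate number, VprBP shRNA left of control shRNA. EZH2 averages 92.9% in VprBP-depleted and 88.2% in control libraries, and BMI1 averages 57.5% in VprBP-depleted and 48.5% in control libraries.

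Beyond the 10 members, 54 of 57 other genes of the Polycomb system were listed. Of these, 10 rose, 23 fell and 21 did not pass the test, so 61.1% were called, near the background of 60.9%. By direction the split differed from the background, in which 33.0% of all listed genes rose and 27.8% fell. These 54 genes fell more often and rose less often than that. The median log2 fold change of the 54 genes was -0.08, against 0.02 over all listed genes. In the PRC2 core list, which holds 4 of the members, 3 of 6 genes rose (1 without control replicate 3) and 1 fell. The third was RBBP7, a histone-binding subunit, 1.08-fold higher (limma adjusted p = 0.0207), and its call was lost in 6 of 14 alternative settings. Of 8 listed PRC2 accessory genes, JARID2 included, 2 rose, 3 fell (5 under either other scaling) and 3 were not called. PHF19, a Polycomb-like protein that recruits PRC2 to chromatin, had 65.4, 63.5 and 61.6 in VprBP-depleted cells, against 43.5, 42.1 and 44.0 in control cells. The PHF19 groups did not overlap, and it rose 1.47-fold (limma adjusted p = 6.39e-08). Its relative MTF2 rose 1.19-fold. EPOP, which joins PRC2 together with Polycomb-like proteins, was 1.38-fold lower, LCOR, whose locus encodes the PRC2 partner PALI1, was 1.18-fold lower, and AEBP2, which belongs to the JARID2-containing subtype, was 1.15-fold lower.

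PCGF genes split between paralogues. Of 8 RING and PCGF genes, members included, 4 rose, RING1 among them, and 1 fell. The share called, 62.5%, was near the background of 60.9% (33.0% higher and 27.8% lower). PCGF1 and PCGF6 were not called. PCGF5 and PCGF3, which mark variant PRC1 complexes without CBX proteins, rose 1.20-fold and 1.16-fold (limma adjusted p = 8.51e-04 and 0.00366). PCGF2 was 1.29-fold lower, at 16.0 ± 1.40 in VprBP-depleted cells and 20.6 ± 1.03 in control cells (SD, n = 3 each; limma adjusted p = 0.00107).

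The CBX, PHC and SCM genes of canonical PRC1 were mostly lower. Of these 11 genes, CBX2 and CBX7 included, 7 fell and 1 rose. Their median log2 fold change was -0.35, against 0.02 over all listed genes, of which 27.8% were called lower. CBX6 had 111, 115 and 107 in VprBP-depleted cells, against 158, 152 and 163 in control cells. Its groups did not overlap, and it was 1.42-fold lower (limma adjusted p = 2.60e-08). PHC3, whose protein can polymerise and cluster PRC1, was 1.41-fold lower (limma adjusted p = 2.31e-05), whereas its paralogue PHC1 was 1.22-fold higher (limma adjusted p = 0.0342). The PHC1 call was lost in 9 of 14 alternative settings. CBX8, next to CBX2 on chromosome 17, had 18.7 ± 0.247 in VprBP-depleted cells and 16.5 ± 1.87 in control cells (SD, n = 3 each) and was not called (limma adjusted p = 0.0715, and 0.0160 without control replicate 3).

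Variant PRC1 genes showed no common direction. Of 19 listed genes, 4 rose and 6 fell, and the median log2 fold change was 0.02, the same as over all listed genes. The share called was 52.6%, against 60.9% of all listed genes (33.0% higher and 27.8% lower). L3MBTL2 and the E2F partner TFDP1, both found in the PCGF6 complex, rose 1.22-fold and 1.20-fold, and SKP1, found in the PCGF1 complex, rose 1.19-fold. BCORL1, a corepressor of the PCGF1 complex, was 1.52-fold lower (limma adjusted p = 1.22e-06), FBRSL1 was 1.28-fold lower and MGA, of the PCGF6 complex, was 1.24-fold lower.

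Genes that oppose Polycomb marks were also mostly lower. Of 10 listed genes of the PR-DUB complex and its partners, which remove ubiquitin from histone H2A, 7 fell and 3 were not called, where 27.8% of all listed genes fell. The median log2 fold change was -0.28, against 0.02 over all listed genes. None was called higher by limma, 1 was higher at an unadjusted p under 0.05, and limma-voom called 0 higher. FOXK1, a forkhead protein that brings PR-DUB to chromatin, had 62.1, 66.7 and 60.1 in VprBP-depleted cells, against 114, 114 and 119 in control cells. The FOXK1 groups were far apart, a 1.83-fold decrease (limma adjusted p = 1.27e-10). MBD6 and HCFC1 were 1.36-fold and 1.28-fold lower. BAP1, the deubiquitinase itself, had 104 ± 3.93 in VprBP-depleted cells and 96.9 ± 0.640 in control cells (SD, n = 3 each; limma adjusted p = 0.0503). BAP1 was called higher without VprBP-depleted replicate 1 (limma adjusted p = 0.0442) or replicate 3 (limma adjusted p = 0.0333). Of the H3K27 demethylases, KDM6B was 1.85-fold lower (limma adjusted p = 1.33e-08). KDM6A had 25.9, 27.5 and 27.6 in VprBP-depleted cells, against 28.0, 26.6 and 25.4 in control cells, which overlapped, and was not called.

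**Figure D4:**
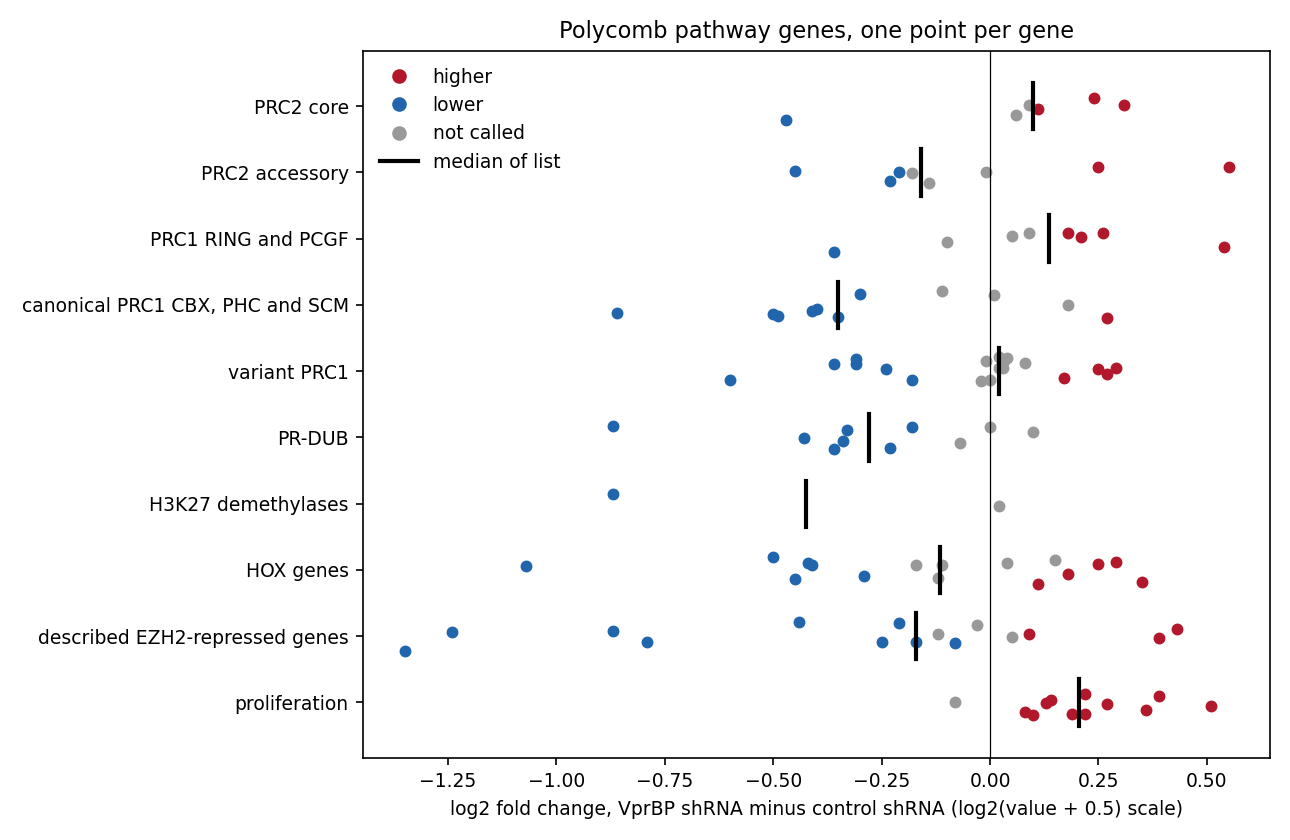
Log2 fold change, VprBP shRNA minus control shRNA on the log2(value + 0.5) scale, of each listed gene in 10 lists; colour gives the limma call, black bars the list median, and vertical scatter within a list carries no meaning. The CBX, PHC and SCM genes of canonical PRC1 and the PR-DUB genes lie mostly left of 0 (medians -0.35 and -0.28), and proliferation genes mostly right of it (median 0.21).

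HOX genes, textbook targets of Polycomb silencing, moved in both directions. Of 39 HOX genes 16 were listed, and 5 rose and 6 fell, with -0.11 as the median log2 fold change, against 0.02 over all listed genes. The share called, 68.8%, was near the background of 60.9% (33.0% higher and 27.8% lower). The number that rose was 2 without VprBP-depleted replicate 2 and 3 without VprBP-depleted replicate 1 or control replicate 1. No HOXD gene was listed. Of the 7 listed HOXA genes, 4 rose and 1 fell, and HOXA3 and HOXA10 were 1.23-fold and 1.19-fold higher. The HOXA3 call was lost in 3 of the fits that left out a library. Of the 5 listed HOXB genes, 4 fell and HOXB3 was not called, and HOXB9 had 33.6, 29.9 and 30.9 in VprBP-depleted cells, against 63.1, 66.3 and 70.7 in control cells. HOXB9 was 2.12-fold lower with no overlap (limma adjusted p = 1.86e-10), and HOXB5 and HOXB6 were 1.49-fold and 1.40-fold lower. The HOXB5 call was lost without control replicate 2 (limma adjusted p = 0.0721) or 3 (limma adjusted p = 0.0800). Of the 4 listed HOXC genes, 1 rose and 1 fell. HOXC6 rose 1.29-fold (limma adjusted p = 0.0134, and 0.0829 without VprBP-depleted replicate 2), on a low level of 8.90 ± 0.998 in VprBP-depleted cells and 6.88 ± 0.377 in control cells (SD, n = 3 each). HOX clusters carry antisense transcripts, and the sources used here do not say whether strand was used in assigning reads.

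Of 15 listed genes described as repressed by EZH2 in cancer cells, 9 fell and 3 rose, where 27.8% of all listed genes fell and 33.0% rose. With single libraries left out, the number that fell was 6 to 8, with 6 without control replicate 1. The median log2 fold change was -0.17, against 0.02 over all listed genes. CDKN2B, which encodes the CDK inhibitor p15, had 20.2, 19.1 and 17.9 in VprBP-depleted cells, against 49.1, 46.5 and 52.1 in control cells. CDKN2B was 2.58-fold lower with no overlap. CDKN2A, the neighbouring locus named above for CBX7, had 39.0, 40.7 and 34.7 in VprBP-depleted cells, against 66.6, 63.6 and 68.6 in control cells. CDKN2A was thus also lower, by 1.74-fold with no overlap (limma adjusted p = 9.89e-09). In the same list the protease inhibitor gene TIMP3 and the CDK inhibitor gene CDKN1C were 2.61-fold and 1.96-fold lower from levels under 10. BMPR1B, SLIT2 and TIMP2 were 1.38-fold, 1.31-fold and 1.07-fold higher, the call of TIMP2 being lost in 9 of 14 alternative settings. The locus of CDKN2A and CDKN2B also has an antisense gene, CDKN2B-AS1, with the same limit on strand as the HOX clusters. This list was written with earlier results of these data known, so its count is not independent evidence of a direction.

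EZH2 transcript is known to be higher in dividing cells, and proliferation genes moved with it. Of 12 such genes, 11 rose and MKI67 was not called, at 392 ± 16.9 in VprBP-depleted cells and 413 ± 11.9 in control cells (SD, n = 3 each; limma adjusted p = 0.0852). Of all listed genes 33.0% rose. The number of these 12 that rose was 9 under either other scaling, limma-voom or the replicate block. MKI67 was called lower in 6 of 14 alternative settings, among them both other scalings. None was called lower by limma in the chosen fit, with 0 at an unadjusted p under 0.05, and limma-voom called 1 lower. CDK1, CCNA2 and PCNA rose 1.43-fold, 1.31-fold and 1.28-fold. The summed level of the 12 genes was 2692 to 2781 in VprBP-depleted libraries and 2373 to 2419 in control libraries. The part of this difference in the EZH2 result was not tested.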

How the data were processed

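The deposited table gives one value per gene and library. Although named as raw counts, the values are a scaled signal made by the authors: the 75th percentile was 78.99 to 79.02 in every library, and low values were multiples of one step per library, 0.0254 to 0.0439, worth 1 read. Whole multiples of it, to within 0.02 reads, made up 55.3% to 64.8% of values, which does not allow a count model. Dividing by the step gave the estimated reads. Each listed gene reached at least 150 of them in some library. Partek and hg38 are named per the submitters' processing notes, and SMARTer libraries from total RNA per the labels' protocols. The sources used here name no aligner, annotation or scaling.

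The test was two-sided limma (version 3.58.1, R 4.3.3) with a variance trend, fitted to log2(value + 0.5) of all 6 libraries, with Benjamini-Hochberg adjustment over 12227 genes. Log2 fold changes on this scale understate changes of low genes. The fit was tested on simulated data. Ratios were tested by exact permutation over 20 assignments. Ends of genes are the deposited ends minus 1, since 6951 of 12001 genes then matched GENCODE 29, against 153 without that step. Transcript lengths come from GENCODE 29 and promoter windows from RefSeq (GRCh38.p14). Named genes are all members, DCAF1, overlapping or ratio partner genes, and up to 3 called genes per list and direction with a mean of at least 1. CDKN2A, CBX8, BAP1, KDM6A, HOXB3, MKI67 and COMMD3 were added after their values were seen. The members and lists were chosen with earlier results of these data known. As alternatives, values were rescaled by median ratios or library size, and the others were pseudocounts of 0.1 and 1, genes with a mean of 5 or more, limma-voom run on the estimated reads, leaving out libraries singly, a block for replicate number and a 1.5-fold threshold (treat). Close paralogues and pseudogenes could share reads in the authors' counting.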

Additional observations from a re-analysis of the deposited data

How the results depend on the processing

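Apart from the 1.5-fold threshold and the removal of single libraries, all 7 alternatives kept 4 members higher and 3 lower. Limma-voom, run without a fold threshold, called 4 members higher and 3 lower. Against a fold of 1.5 (limma treat) 0 members were higher, 0 at an unadjusted p under 0.05, and 1 was lower. With that threshold 296 genes were higher and 355 lower over all listed genes, and 0 and 3 of the 64 Polycomb system genes, against 14 and 26 in the test without it. With each library left out, 2 to 4 members were higher and 3 were lower, 3643 to 4017 genes were higher and 3054 to 3388 lower, and 11 to 14 Polycomb system genes were higher and 26 to 27 lower. EED and RING1 were the members lost, and JARID2, which was never called, was 0.02 without VprBP-depleted replicate 1 and 0.03 without control replicate 2 on the log2 scale, within a range of -0.04 to 0.03. The calls of EZH2, EZH1, BMI1, CBX2 and CBX7 held in every alternative except treat, under which CBX7 alone held. The DCAF1 change ranged from -1.01 to -0.95.

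Same-numbered libraries deviated from their group means with correlations of 0.0258, -0.178 and -0.168. Differently numbered libraries had correlations of -0.102 to 0.217, so no sign of pairing by number was seen. Deviations from a mean of 3 libraries are tied to each other, so these correlations cannot show that pairing is absent. The fit with a replicate block called 4 members higher and 3 lower, 3826 genes higher and 3216 lower, and 12 and 26 Polycomb system genes, and changed no member's call. Paired by number, the EZH2 over EZH1 difference was 0.79 (exact sign-flip p = 0.25, the smallest for 3 pairs).

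With the union of annotated exons as length, chosen after seeing the data, the differences in family share, VprBP-depleted minus control, were 5.20 percentage points for EZH2, 8.93 for BMI1 and 0.77 for RING1, against 4.70, 8.97 and 0.82 with the principal transcript. The shares themselves moved, that of RING1 in control cells to 82.1%, against 80.8%. KDM6A, never called, was -0.01, -0.00 and -0.02 under median-ratio scaling, library-size scaling and limma-voom and -0.02 without control replicate 3, against 0.02. EZH1 and RNF2, with at most 500 and 621 estimated reads per library, limit what can be seen of small changes, and for SUZ12, JARID2 and RNF2 the intervals in the text bound the difference.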
